A study of Mus musculus with 6 samples.

Results

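The genes of the MYC, MAX and MXD network were followed in RNA from mouse leukemia exposed to the chemokine CCL5 or kept under control conditions. The members were the 9 named genes Myc, Mycn, Mycl1, Max, Mnt, Mxd1, Mxd3, Mxd4 and Mxi1, taken by symbol, and all 9 were among the 23337 genes of the count table. Mycl1 is the older symbol of Mycl. The 6 libraries, of which 3 carry the label ccl5 and 3 the label control, all came from a leukemia described as primary, neonatal and murine, and MLL-rearranged in the title of the series. Leukemia of a tertiary transplant is the label of ccl5 replicate 1, and leukemia of a primary transplant that of ccl5 replicates 2 and 3 and of control replicate 3. For control replicates 1 and 2 no transplant is named. Source names begin with neo30 for ccl5 replicate 1 and with neo10 for ccl5 replicates 2 and 3 and control replicate 3. Dose, exposure time, mouse strain and the fusion partner are not given in the sources used here, nor whether the libraries came from separate animals, so p-values measure only the spread between these libraries.

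MYC proteins are transcription factors that bind DNA only as dimers with MAX, at the E-box CACGTG, and drive genes of growth and division. MNT and the MXD proteins, among them MXI1, compete for MAX and for the same site, and bring in SIN3 corepressors that lower transcription. In blood cells MYC is known for its high level in dividing progenitors and MXD1 for its rise as myeloid cells mature, so the balance of the dimers is read as a switch between growth and maturation.

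The 6 libraries fell into 3 pairs that did not follow the treatment. Pearson correlation of log2 expression over the tested genes was 0.995 to 0.997 within the pairs and 0.841 to 0.902 between all other libraries. The pairs were ccl5 replicates 1 and 3, control replicates 1 and 2, and ccl5 replicate 2 with control replicate 3. The source name of ccl5 replicate 3 thus goes against its values, which resembled ccl5 replicate 1 and neither of the other neo10 libraries. Total gene counts were 13421100 to 16613837 in the ccl5 libraries and 15507823 to 18445095 in the control libraries. Levels are given as CPM, read counts divided by library sizes scaled with TMM, a method that sets most genes equal, and 3 counts, the floor below which a value is not told apart from 0, came to 0.16 to 0.273 CPM. B cell, T cell and erythroid markers summed to at most 15.6, 3.42 and 2.02 CPM in ccl5 libraries and 17.0, 3.85 and 1.98 CPM in control libraries. Of these lists, 4 of 8 B cell genes, 4 of 8 T cell genes and 4 of 7 erythroid genes, Pax5, Ebf1 and Cd3e among them, stood at or under the floor in all 6 libraries. Other genes of the lists did not: Cd79b, at 10.5 to 15.9 CPM over the 6 libraries, made up most of the B cell sum. Lck, a T cell gene, reached 1.89 CPM in ccl5 replicate 2 and 2.42 CPM in control replicate 3. Monocyte and macrophage markers, 13 of 13 tested, summed to 22776, 4408 and 26445 CPM in ccl5 replicates 1 to 3 and to 13237, 12964 and 4822 CPM in control replicates 1 to 3. Neutrophil and granulocyte markers, 12 of 12 tested, summed to 1051, 16020 and 1024 CPM in ccl5 samples, against to 3021, 3075 and 15790 CPM in controls.

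The network's own binding site stands in the promoters of some of its members, and these promoters are shown for that reason. RefSeq promoters (build GRCm38.p6, 250 bases before to 50 after the start of a gene) were at hand for 8 of the 9 members, all but Myc. The letters CACGTG, which read the same on both strands, occurred in 3 of these 8, Max, Mnt and Mxd4. They occurred in 11.9% of the 9762 tested genes with a promoter in the table and in 7.15% of all 32851 promoters. Capitals mark the motif, each sequence is read along the strand of its gene, and a match is a description of the letters only. The Max promoter lies at chr12:76962199-76962498 on the minus strand, the Mnt promoter at chr11:74830674-74830973 on the plus strand and the Mxd4 promoter at chr5:34187661-34187960 on the minus strand.
Max: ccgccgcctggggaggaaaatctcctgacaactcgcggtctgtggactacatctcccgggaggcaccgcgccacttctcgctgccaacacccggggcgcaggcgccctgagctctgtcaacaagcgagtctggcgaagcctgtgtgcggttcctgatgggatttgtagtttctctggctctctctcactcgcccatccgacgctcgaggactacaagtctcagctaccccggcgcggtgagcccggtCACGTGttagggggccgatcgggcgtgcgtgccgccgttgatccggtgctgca
Mnt: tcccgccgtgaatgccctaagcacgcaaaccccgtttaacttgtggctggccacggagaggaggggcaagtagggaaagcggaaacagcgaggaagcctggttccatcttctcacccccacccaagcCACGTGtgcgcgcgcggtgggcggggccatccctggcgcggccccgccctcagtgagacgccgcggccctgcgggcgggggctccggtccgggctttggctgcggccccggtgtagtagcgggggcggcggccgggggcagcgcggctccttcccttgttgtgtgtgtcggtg
Mxd4: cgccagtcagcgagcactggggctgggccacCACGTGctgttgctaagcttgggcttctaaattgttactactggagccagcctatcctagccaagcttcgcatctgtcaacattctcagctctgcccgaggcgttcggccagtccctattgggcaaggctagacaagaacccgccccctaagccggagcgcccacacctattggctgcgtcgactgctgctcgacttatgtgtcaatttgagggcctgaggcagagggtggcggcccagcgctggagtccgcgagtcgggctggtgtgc
The motif began 3 bases before the start of Max, 123 bases before that of Mnt and 219 bases before that of Mxd4. The values below show no common course for these 3 genes: Max varied little, Mnt was high in ccl5 replicates 1 and 3, and Mxd4 was highest in ccl5 replicate 2 and control replicate 3.

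No member passed the test between ccl5 and control libraries. An adjusted p under 0.05 in edgeR's quasi-likelihood fit was reached by 0 of 12174 genes (0.0% higher, 0.0% lower, smallest adjusted p 0.365). The 7 members that passed the filter on low counts were among them, with 5 at a higher and 2 at a lower fold change. At an unadjusted p under 0.05, Mnt was the single member, on the higher side, where 8.99% of all tested genes were higher and 4.67% lower. Mycn and Mycl1 were under the filter. DESeq2's Wald test called 1.64% of its genes and no member. It gave no p for Myc and Mxd3 and no adjusted p for Mycn and Mycl1, so these members could not be called there. Limma-voom with sample quality weights called 6 of the 7 members, all but Mxd4, among 66.5% of all tested genes. Its log2 fold changes were -3.02 for Myc, 1.55 for Mnt and -1.32 for Mxd3, against -1.15, 1.23 and -0.05 in edgeR. They lay closer to the -3.06, 1.59 and -1.43 that edgeR gave without ccl5 replicate 2 and control replicate 3, a choice made after the data were seen. Without control replicate 3, edgeR called 1.88% of genes and no member.

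Myc (chromosome 15, 61985341 to 61990361, plus strand, mm10), the main growth-driving member in blood cells, measured 9.76, 67.0 and 5.10 CPM in ccl5 replicates 1 to 3, against 64.4, 64.8 and 53.3 CPM in control replicates 1 to 3. These were 137, 1097 and 56 reads in the ccl5 libraries and 1015, 1215 and 969 reads in the control libraries. Among the treated samples ccl5 replicates 1 and 3 were low, and ccl5 replicate 2 stood above all 3 control libraries, so the groups overlapped. The mean was 27.3 ± 34.5 CPM in ccl5 samples and 60.8 ± 6.51 CPM in controls (SD, 3 samples each), with a log2 fold change of -1.15 (SE 0.93, edgeR adjusted p = 0.588). Without ccl5 replicate 2 the log2 fold change of Myc was -3.02 (SE 0.33, edgeR adjusted p = 0.0057), in a fit that called 26.2% of all tested genes. With ccl5 replicate 2 as the lone ccl5 library against the 3 controls it was 0.14, a fit in which the spread comes from the controls alone. The low values of Myc were those of the 2 ccl5 libraries that resembled each other, and an effect of CCL5 there and other differences of that pair cannot be told apart. In bulk RNA, fewer Myc-expressing cells and less Myc RNA per cell cannot be told apart either.

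The other MYC family genes were close to absent. Mycn (chromosome 12, 12936093 to 12941836), the family member of early neural and stem cells, had 0 reads in each ccl5 library and 1, 1 and 0 reads in control replicates 1 to 3. Mycl1 (chromosome 4, 122996099 to 123002480), which in mice is known for its part in dendritic cells, had 12, 0 and 11 reads in ccl5 replicates 1 to 3 and 0, 0 and 2 reads in control replicates 1 to 3. Mycl1 was thus above the floor only in the 2 ccl5 libraries with low Myc, at 0.855 and 1.001 CPM. It was left out of the test with all 6 libraries. Fits with fewer libraries let it past the filter only through the 2 ccl5 libraries in which it was high, so no test of it is given.

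**Figure D1:**
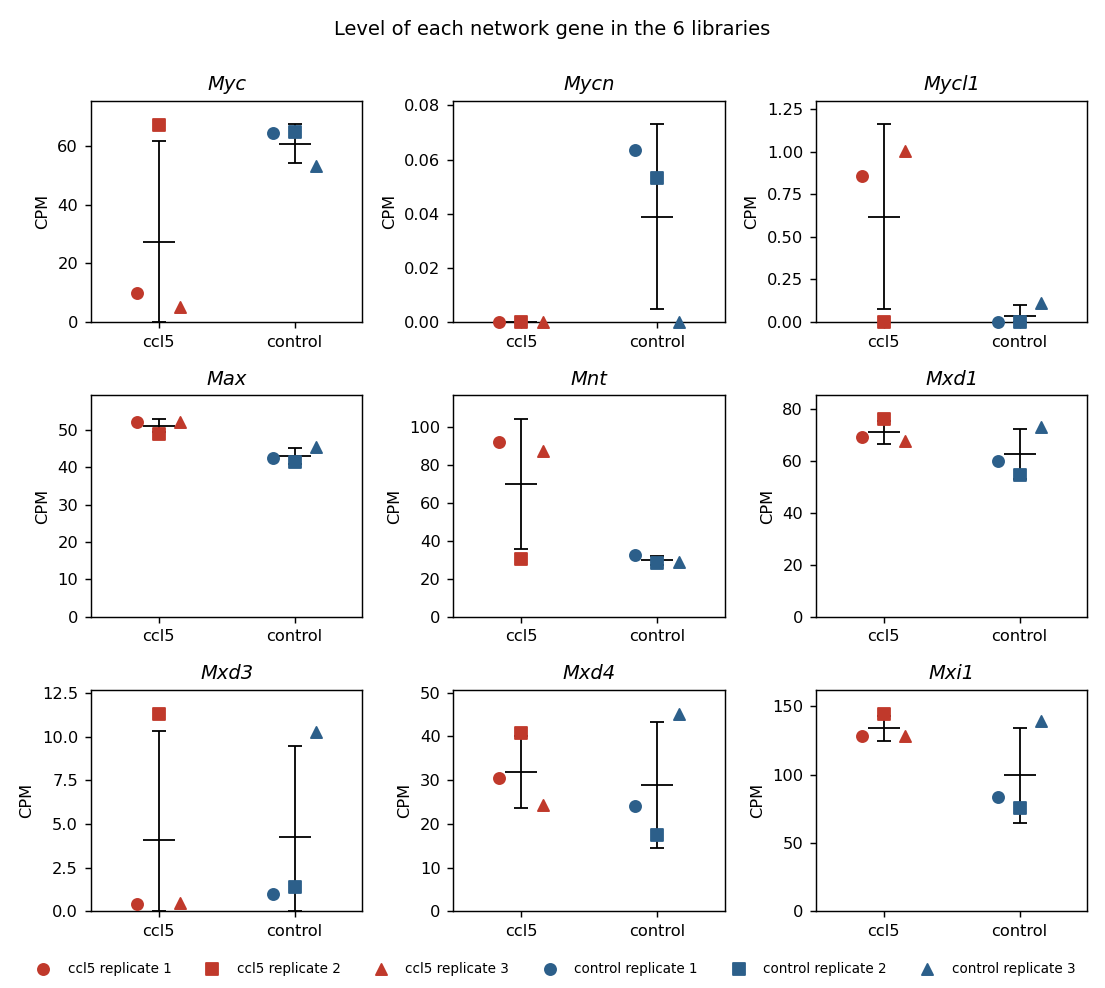
Level of each of the 9 network genes in CPM (vertical axis, from 0 in each panel with its own scale) for ccl5 libraries (red, left) and control libraries (blue, right), with horizontal line and bars for mean and SD of 3 libraries, bars cut at 0. Myc is at 9.76 and 5.10 CPM in ccl5 replicates 1 and 3 and at 53.3 to 67.0 CPM in the other 4 libraries, Mnt shows the opposite layout, and the Mycn panel spans less than 0.1 CPM.

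Max (chromosome 12, 76937269 to 76962248, minus strand), the partner that every dimer of the network needs, was the steadiest member. It measured 52.2, 49.0 and 52.1 CPM in ccl5 samples, against 42.4, 41.3 and 45.4 CPM in controls. All ccl5 values lay above all control values, as for 8.27% of tested genes, and the span over the 6 libraries was 1.26-fold. The log2 fold change was 0.25 (SE 0.13, edgeR adjusted p = 0.42). The separation rested on TMM scaling: on total counts the level of Max was 44.1, 58.0 and 42.6 CPM in ccl5 samples, against 43.1, 42.0 and 53.2 CPM in controls, which overlap. That scaling moved the median log2 fold change of all tested genes to -0.17, against -0.01 with TMM, and the value of Max to 0.07.

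Mnt (chromosome 11, 74830924 to 74845725, plus strand), the broadly expressed repressor partner of MAX, was the member with the smallest p. It measured 91.7, 30.3 and 87.2 CPM in ccl5 samples, against 32.3, 28.0 and 28.8 CPM in controls. It was high in ccl5 replicates 1 and 3, while ccl5 replicate 2 lay inside the range of the controls. The mean was 69.7 ± 34.2 CPM in ccl5 samples and 29.7 ± 2.26 CPM in controls (SD, 3 samples each), and the log2 fold change was 1.23 (SE 0.42, edgeR adjusted p = 0.365). On total counts all 3 ccl5 libraries lay above all 3 controls, as for 5.45% of tested genes (9.08% lay wholly lower), with ccl5 replicate 2 at 35.8 CPM and control replicate 3 at 33.7 CPM. Without ccl5 replicate 2 the log2 fold change was 1.59 (edgeR adjusted p = 0.00269, 26.2% of tested genes called), and with ccl5 replicate 2 alone against the 3 controls it was 0.03. By its values per library, Mnt was high in the same 2 libraries in which Myc was low.

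The 4 MXD repressors followed the pairs of libraries in other ways. Mxd3 (chromosome 13, 55325168 to 55329730, minus strand), which unlike its relatives is known from dividing cells, had 6, 185 and 5 reads in the ccl5 libraries and 16, 26 and 187 reads in the control libraries. Its level was 0.427, 11.3 and 0.455 CPM in ccl5 samples, against 1.01, 1.39 and 10.3 CPM in controls. One library of each group was high, ccl5 replicate 2 and control replicate 3, which are alike over all genes, and the group means were 4.06 ± 6.27 CPM in ccl5 samples and 4.23 ± 5.25 CPM in controls (SD, 3 samples each). The log2 fold change was -0.05 (SE 1.51, edgeR adjusted p = 0.99). Its exons share 105 bases with those of Prelid1 on the opposite strand, and the counting did not use strand, so single reads there are uncertain.

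Mxd1 (chromosome 6, 86647045 to 86669159, minus strand), the member known to rise as myeloid cells mature, measured 69.2, 76.0 and 67.7 CPM in ccl5 samples, against 59.9, 54.6 and 73.2 CPM in controls. Mxi1 (chromosome 19, 53310506 to 53375810, plus strand), the repressor also known as MXD2, measured 129, 145 and 129 CPM in ccl5 samples, against 83.6, 75.8 and 139 CPM in controls. Mxd4 (chromosome 5, 34176580 to 34187710, minus strand), another MAX-binding repressor, measured 30.4, 40.8 and 24.4 CPM in ccl5 samples, against 24.2, 17.4 and 45.2 CPM in controls. With TMM, control replicates 1 and 2 were the lowest libraries for all 3 genes, and control replicate 3 stood with or above the ccl5 libraries, so the groups overlapped. The log2 fold changes were 0.18 for Mxd1 (SE 0.16, edgeR adjusted p = 0.624), 0.43 for Mxi1 (SE 0.26, adjusted p = 0.484) and 0.14 for Mxd4 (SE 0.40, adjusted p = 0.887). On total counts the sign of Mxd4 turned, to -0.02, and the order held for Mxi1 but not for Mxd4 and Mxd1, where ccl5 replicate 3 lay below control replicate 1, at 19.97 against 24.6 CPM for Mxd4 and 55.4 against 60.8 CPM for Mxd1.

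Contrasts between pairs of libraries show where the members differed. Between ccl5 replicate 2 and control replicate 3, single libraries with no replicate check, the log2 ratio was 0.33 for Myc and between -0.15 and 0.14 for the other 6 tested members. Between ccl5 replicates 1 and 3 and control replicates 1 and 2, a contrast chosen after the data were seen, edgeR called all 7 members tested with 6 libraries, where it called 70.7% of all tested genes. There the log2 fold change was -3.06 for Myc, -1.43 for Mxd3, 0.33 for Max, 1.59 for Mnt, 0.28 for Mxd1, 0.43 for Mxd4 and 0.71 for Mxi1. A share of calls near that of all genes is no result about the network, and the sizes are given as a description of these 4 libraries.

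**Figure D2:**
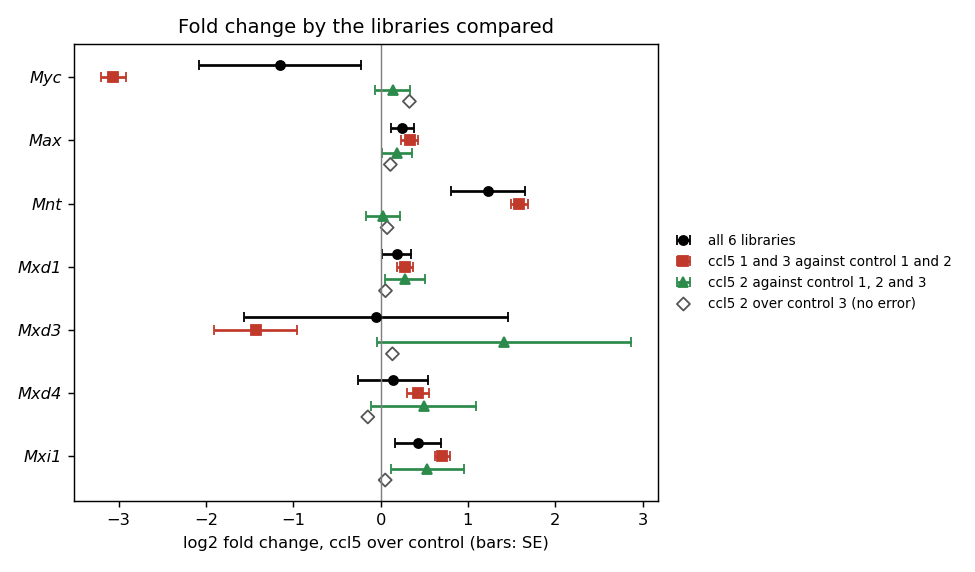
Log2 fold change of ccl5 over control (horizontal axis, bars are SE) for the 7 tested members with all 6 libraries, with ccl5 replicates 1 and 3 against control replicates 1 and 2, with ccl5 replicate 2 against the 3 controls, and as the ratio of ccl5 replicate 2 to control replicate 3 (open diamonds, no error). Myc moves between -3.06 and 0.33 and Mnt between 1.59 and 0.03 with the libraries compared, while Max stays within 0.11 to 0.33.

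Levels can be set side by side between genes only per length of exon, as CPM per kilobase. On that scale the medians over the 6 libraries were 24.5 for Myc, 23.5 for Max, 23.2 for Mxd4, 22.9 for Mxi1, 14.7 for Mxd1, 6.82 for Mnt and 0.924 for Mxd3. The first 4 do not differ beyond their spread, since Myc alone ranged over 2.12 to 27.9 and Mxd4 over 14.8 to 38.3. Mxd1, at 11.7 to 16.3, lay below Max, at 20.6 to 26.04, in every library. Myc was the most abundant member in control replicates 1 and 2, where it made up 25.8% and 28.5% of the summed level of the 9 genes. It made up 3.56%, 19.3% and 2.01% in ccl5 replicates 1 to 3 and 16.1% in control replicate 3. In ccl5 replicates 1 and 3 Max ranked first and Myc sixth, and the share of Mnt was 17.5% and 17.97%, against 4.55% to 6.77% in the control libraries and 4.58% in ccl5 replicate 2.

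The summed level of the MYC family was set against that of the 5 repressors Mxd1, Mxd3, Mxd4, Mxi1 and Mnt in each library. The ratio was 0.0514, 0.304 and 0.0311 in ccl5 replicates 1 to 3, against 0.479, 0.573 and 0.239 in control replicates 1 to 3. The repressors' summed level exceeded that of the MYC family in every library. On the log2 scale the ratio was -3.67 ± 1.73 with CCL5 and -1.31 ± 0.67 in controls (SD, n = 3 each), and the groups overlapped, since ccl5 replicate 2 lay above control replicate 3. No test is given for this score. Different sums made the difference in different libraries: the MYC family summed to 4.31 and 2.41 CPM per kilobase in ccl5 replicates 1 and 3 and to 22.2 to 27.9 in the other 4 libraries, while the repressors summed to 47.2 and 56.0 in control replicates 2 and 1 and to 77.4 to 93.0 in the other 4.

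**Figure D3:**
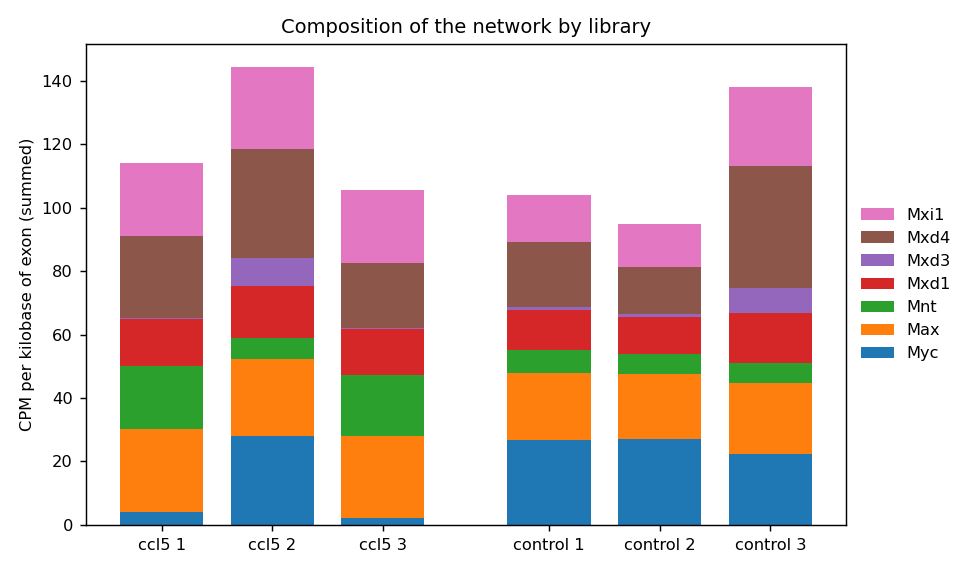
Stacked level of the 7 tested members in CPM per kilobase of exon (vertical axis) for the 3 ccl5 libraries (left) and the 3 control libraries (right). Myc, at the foot of each bar, is at 4.07 and 2.12 in ccl5 replicates 1 and 3 and at 22.2 to 27.9 elsewhere, and Mnt is at 20.003 and 19.01 in these 2 libraries and at 6.11 to 7.04 elsewhere.

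The wider network, which joins MAX through MGA and runs in parallel through MLX, did not pass the test in any of its 6 genes. Mga, a large MAX-binding repressor, measured 114, 103 and 132 CPM in ccl5 samples, against 116, 129 and 111 CPM in controls. Mlxip, which encodes the glucose-sensing MLX partner MondoA, measured 131, 108 and 131 CPM in ccl5 samples, against 116, 114 and 114 CPM in controls. Both genes thus stayed close to level, with log2 fold changes of -0.03 (SE 0.16) and 0.11 (SE 0.14). Mlx, the shared partner of this arm, measured 50.2, 124 and 50.2 CPM in ccl5 samples, against 72.3, 77.4 and 119 CPM in controls. Txnip, a MondoA target that restrains glucose uptake, measured 540, 79.6 and 603 CPM in ccl5 samples, against 581, 515 and 94.9 CPM in controls. Arrdc4, a second MondoA target, measured 74.3, 10.4 and 81.3 CPM in ccl5 samples, against 44.6, 40.4 and 12.4 CPM in controls. Txnip and Arrdc4 were low, and Mlx was high, in ccl5 replicate 2 and control replicate 3. Mlxipl, the ChREBP gene, stayed between 0.273 and 3.30 CPM. The promoters of Mlx, Mlxipl and Arrdc4 hold CACGTG, shown with its neighbouring bases from chr11:101087238-101087267 (plus strand), chr5:135089780-135089809 (plus strand) and chr7:68749414-68749443 (minus strand).
Mlx: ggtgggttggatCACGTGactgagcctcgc
Mlxipl: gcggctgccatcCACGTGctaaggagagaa
Arrdc4: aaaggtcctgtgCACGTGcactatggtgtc
The CACGTG motif began 40, 98 and 193 bases before the starts of Mlx, Mlxipl and Arrdc4.

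Partner proteins of both sides were steadier than Myc. Of 15 genes for MYC cofactors, 9 lay higher and 6 lower, 0 passed the test, and the median log2 fold change was 0.09 against -0.01 over all tested genes. On total counts the median was -0.14, against -0.17 over all tested genes. At an unadjusted p under 0.05, 4 of the 15 were higher, as were 8.99% of all tested genes. Zbtb17, which encodes the MYC-binding factor MIZ1, measured 49.1, 35.1 and 42.8 CPM in ccl5 samples, against 30.2, 29.1 and 28.7 CPM in controls. Ncoa6, a nuclear receptor coactivator, measured 76.1, 60.6 and 69.5 CPM in ccl5 samples against 45.1, 47.1 and 52.2 CPM in the controls, and Cdk9, the elongation kinase, 162, 101 and 156 CPM in ccl5 samples against 102, 92.5 and 88.5 CPM in the controls. The ccl5 libraries lay above all controls for 4 of the 15 genes with TMM scaling and for 2 of them on total counts, where 8.27% and 5.45% of all tested genes did so.

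Among 19 genes of the SIN3 and NCOR corepressors, through which MXD and MNT act, 13 lay higher and 6 lower, 0 passed the test, and the median was 0.09 with TMM and -0.05 on total counts. Sin3a, the scaffold, measured 72.1, 64.7 and 66.3 CPM in ccl5 samples, against 53.8, 60.5 and 55.7 CPM in controls, at a log2 fold change of 0.26 (SE 0.13). Sin3b, its paralog, measured 110, 97.5 and 108 CPM in ccl5 samples, against 108, 106 and 100 CPM in controls. The scaffolds thus spanned 1.34-fold and 1.13-fold over the 6 libraries. Sap130 and Ing2, subunits of the complex, had log2 fold changes of 0.41 (SE 0.16) and 0.58 (SE 0.24), and Suds3, which binds SIN3 and its deacetylases, 0.33 (SE 0.17). With TMM the ccl5 libraries lay above all controls for 4 of the 19 genes (8.27% of all tested genes), and on total counts for 0 of them (5.45%).

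The genes that act on MYC protein stability were split, 7 higher and 6 lower of 13, with 0 called and a median of 0.01 with TMM and -0.15 on total counts. Fbxw7, the ubiquitin ligase subunit that marks MYC for breakdown, measured 19.8, 8.24 and 21.3 CPM in ccl5 samples, against 15.98, 14.8 and 10.1 CPM in controls. Gsk3b, the kinase that prepares MYC for FBXW7, measured 122, 62.0 and 112 CPM in ccl5 samples, against 71.0, 72.2 and 58.7 CPM in controls. RNA of both was highest in ccl5 replicates 1 and 3, the libraries with low Myc RNA. Aurka, a gene of the same list named after its values were seen, was lowest there, at 5.41 and 2.37 CPM. MYC protein was not measured, and a link of these genes to Myc was not tested. For Stub1, a ubiquitin ligase gene, the log2 fold change was 0.34 (SE 0.15), and for Set, which encodes a phosphatase inhibitor, it was -0.44 (SE 0.36).

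Of 13 genes listed as acting on the Myc gene itself, 7 lay higher and 6 lower, 0 were called and the median was 0.11. That median turned to -0.18 without ccl5 replicate 2, to -0.015 without control replicate 2 and to -0.061 on total counts, and was 0.023 without ccl5 replicate 1 and 0.038 without control replicate 3. Prdm1, a repressor of Myc in maturing lymphocytes, measured 8.76, 2.44 and 7.55 CPM in ccl5 samples, against 0, 0.373 and 1.71 CPM in controls, at a log2 fold change of 3.15 (SE 1.27, edgeR adjusted p = 0.365). Its highest values were in ccl5 replicates 1 and 3. Ctnnb1, which encodes beta-catenin, measured 541, 395 and 573 CPM in ccl5 samples against 276, 251 and 393 CPM in the controls. Stat3, a cytokine-activated factor, measured 177, 156 and 163 CPM in ccl5 samples against 85.5, 87.8 and 139 CPM in the controls. For both genes ccl5 replicate 2 and control replicate 3 lay close together. Cnbp, a DNA-binding factor of the Myc promoter, had a log2 fold change of -0.48 (SE 0.22). Pvt1, the noncoding RNA gene beside Myc, measured 5.20, 1.89 and 5.37 CPM in ccl5 samples, against 10.1, 10.7 and 1.98 CPM in controls, so it was lowest in ccl5 replicate 2 and control replicate 3, where Myc was not low.

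Genes that MYC is known to induce were mostly at lower values with CCL5. Of 29 tested, 26 lay lower and 3 higher, 0 passed the test, and the median log2 fold change was -0.48 against -0.01 over all tested genes. It was -0.80 without ccl5 replicate 2, -0.29 without ccl5 replicate 1 and -0.29 without ccl5 replicate 3. The 3 higher genes were Cdk4, Hk2 and Ldha, of which the last 2 are named after their values were seen. Between ccl5 replicate 2 and control replicate 3 the list turned, with 25 of 29 at a higher value and a median log2 ratio of 0.15 (0.00 over all tested genes). Between ccl5 replicates 1 and 3 and control replicates 1 and 2, 26 of 29 were lower with a median of -0.88 (-0.02 over all tested genes). Markers of cell division were lower too: of 14 cycling cell genes all 14 had a lower fold change, at a median of -0.68 with 0 called. The cycling genes summed to 269, 2538 and 184 CPM in ccl5 samples, against 991, 1047 and 2436 CPM in controls. The 30 MYC-induced genes summed to 3986, 4551 and 4156 CPM in ccl5 samples, against 5906, 6227 and 4263 CPM in controls. Both sums were thus lowest in ccl5 replicates 1 and 3, but they were highest in different libraries. The median of the cycling genes was -2.96 without ccl5 replicate 2, -0.21 without ccl5 replicate 1, -0.17 without ccl5 replicate 3 and -0.24 without control replicate 3, and it turned to 0.69 with ccl5 replicate 2 as the lone ccl5 library. The part of cell division in the values of the MYC targets was not tested. The cycling sum was lowest in ccl5 replicates 1 and 3, where Mxd3 was lowest too. Mki67, a marker of cells in cycle, measured 85.0, 687 and 61.8 CPM in ccl5 samples, against 201, 199 and 659 CPM in controls.

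Single targets did not all follow Myc. Odc1, the polyamine enzyme and a classical MYC target, measured 185, 193 and 191 CPM in ccl5 samples, against 794, 806 and 184 CPM in controls, at a log2 fold change of -1.65 (SE 0.55, edgeR adjusted p = 0.365). Ccnd2, a cyclin of early G1, measured 5.34, 1.04 and 4.19 CPM in ccl5 samples, against 87.4, 91.1 and 1.38 CPM in controls. Both were high in control replicates 1 and 2 alone, so they did not separate the libraries with low Myc from ccl5 replicate 2 and control replicate 3, where Myc was at 67.0 and 53.3 CPM. Npm1, which encodes nucleophosmin, measured 406, 549 and 442 CPM in ccl5 samples, against 764, 814 and 580 CPM in controls, without overlap, as for 7.49% of tested genes on the lower side. Slc7a5, an amino acid transporter gene, measured 11.6, 37.9 and 8.19 CPM in ccl5 samples, against 37.2, 36.4 and 31.4 CPM in controls. It is named because it ranked among the genes most like Myc, given below, so its likeness to Myc was set by that choice.

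Cdk4, the G1 kinase, went the other way, at 139, 142 and 132 CPM in ccl5 samples, against 98.2, 99.8 and 120 CPM in controls, at a log2 fold change of 0.38 (SE 0.15, edgeR adjusted p = 0.365). Its promoter, at chr10:127063285-127063584 on the plus strand, holds the letters CACGTG 4 times and is shown because it has the most matches among the targets listed.
Cdk4: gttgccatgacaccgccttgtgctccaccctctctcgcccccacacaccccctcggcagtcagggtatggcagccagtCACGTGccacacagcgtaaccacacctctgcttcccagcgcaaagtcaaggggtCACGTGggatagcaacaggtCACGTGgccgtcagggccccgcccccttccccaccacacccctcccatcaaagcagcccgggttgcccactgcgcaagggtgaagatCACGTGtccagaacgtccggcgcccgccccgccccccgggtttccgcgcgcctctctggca
Of the 25 MYC-induced genes with a promoter in the table, 6 hold CACGTG (24.0%). Over the 9762 tested genes with a promoter in the table the motif went with a small difference in response, which was not tested. The median log2 fold change was 0.05 for the 1159 genes with it and -0.01 for the 8603 without it. Of these genes 45.6% and 51.0% lay lower. Between ccl5 replicates 1 and 3 and control replicates 1 and 2 the medians were 0.06 and -0.02.

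Of 8 tested genes that MYC is known to repress, 6 lay higher and 2 lower, 0 were called and the median was 0.48. That median was 0.89 without ccl5 replicate 2, 0.23 without ccl5 replicate 1, 0.28 without ccl5 replicate 3, 0.73 without control replicate 1 and 0.19 without control replicate 3. It was 0.23 on total counts and turned to -0.87 with ccl5 replicate 2 as the lone ccl5 library. Cdkn1c, the inhibitor of cyclin-dependent kinases p57, measured 88.2, 3.24 and 101 CPM in ccl5 samples, against 14.8, 14.0 and 3.85 CPM in controls. Gadd45a, a growth arrest gene, measured 32.2, 5.56 and 35.5 CPM in ccl5 samples, against 11.6, 12.1 and 6.82 CPM in controls. Cdkn1a, the p21 inhibitor, measured 335, 78.0 and 342 CPM in ccl5 samples, against 239, 213 and 76.7 CPM in controls. All 3 were highest in ccl5 replicates 1 and 3 and lowest in ccl5 replicate 2 and control replicate 3. Cebpa, a myeloid regulator that MYC represses, measured 329, 253 and 291 CPM in ccl5 samples, against 97.3, 82.6 and 247 CPM in controls. Cdkn2c, the p18 inhibitor, went against the list at 74.6, 146 and 87.2 CPM in ccl5 samples, against 164, 160 and 157 CPM in controls. The other lower gene, named after its values were seen, was Cdkn2b, at a log2 fold change of -0.95 (SE 0.77). It measured 6.13, 2.32 and 6.01 CPM in ccl5 samples, against 13.2, 12.8 and 1.93 CPM in controls.

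**Figure D4:**
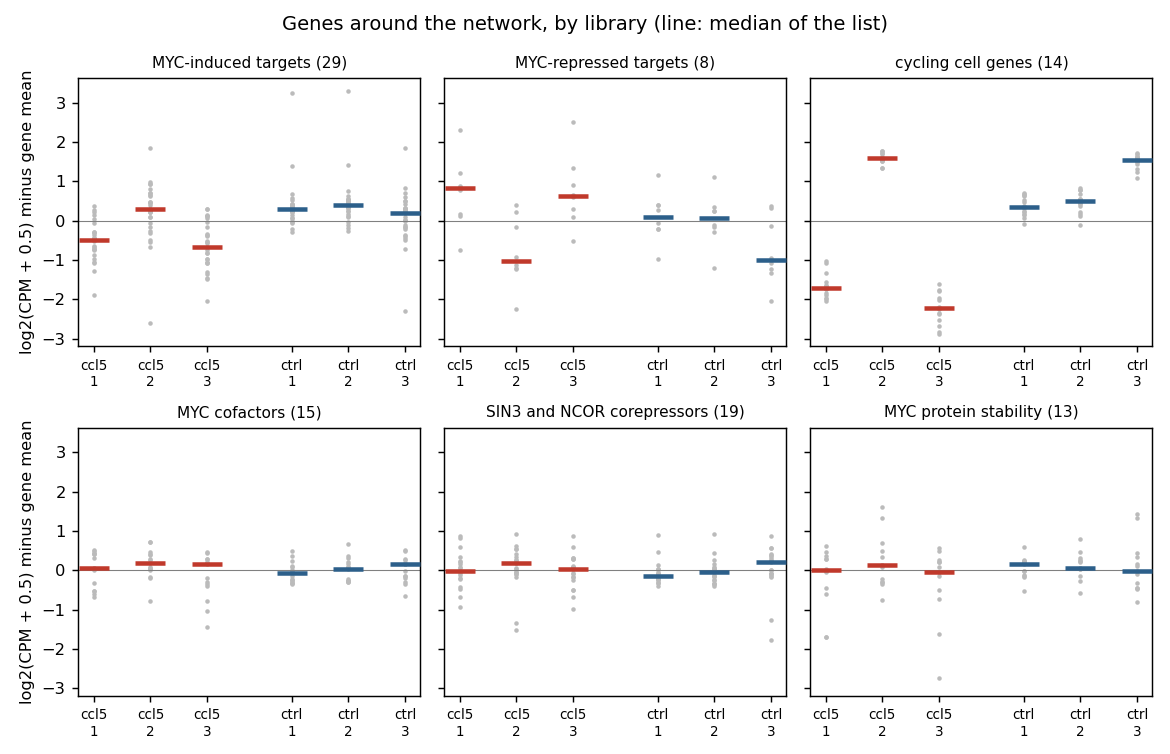
Level of each tested gene as log2(CPM + 0.5) minus the mean of that gene over the 6 libraries (vertical axis, grey points) for 6 gene lists, with the median of the list as a line (red for ccl5, blue for control libraries) and the number of genes in brackets. The MYC-induced and cycling lists are lowest in ccl5 replicates 1 and 3 and the MYC-repressed list is highest there, while the cofactor, corepressor and stability lists stay near 0.

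Most monocyte markers were highest where Myc was lowest, and their part in the level of Myc was not tested. Of 13 such genes 11 had a higher fold change (median 1.37, 0 called). Ctss, a lysosomal protease of macrophages, measured 4024, 499 and 4800 CPM in ccl5 samples, against 296, 282 and 523 CPM in controls. Klf4 and Emr1 had log2 fold changes of 2.60 (SE 0.75) and 1.37 (SE 0.46). These 3 markers were highest in ccl5 replicates 1 and 3, the libraries with low Myc and high Mnt. The 2 markers with a lower fold change, named after their values were seen, were Cd14, a receptor for bacterial lipopolysaccharide, and Ccr2, a chemokine receptor gene of monocytes. Cd14 measured 31.3, 17.6 and 29.9 CPM in ccl5 samples, against 195, 188 and 18.4 CPM in controls. Ccr2 measured 457, 293 and 500.5 CPM in ccl5 samples, against 922, 906 and 341 CPM in controls. Both were highest in control replicates 1 and 2, where Myc was high. Most neutrophil and granulocyte genes were lowest in ccl5 replicates 1 and 3. There S100a8 measured 6.13 and 6.92 CPM, against 1218 CPM in ccl5 replicate 2 and 450, 491 and 1246 CPM in control replicates 1 to 3. Ctsg, a granule protease, measured 172 and 115 CPM in ccl5 replicates 1 and 3 and at least 1734 CPM in the other 4 libraries. Mmp8 and Csf3r did not share that layout and were lowest in control replicates 1 and 2.

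The genes most like 4 of the members were ranked by Pearson correlation of log2(CPM + 0.5) over the 6 libraries among 8952 genes (8953 for Mxd3) with an average log2 CPM of at least 3. Since the 6 libraries form 3 alike pairs, such values rest on about 3 levels and are a description. For Myc they were Top1mt, Slc7a5, Gpr132, Acy1 and Spata13, with r of 0.9985 to 0.9998. Acy1, an aminoacylase, had the same layout as Myc at 3.28, 23.0 and 1.82 CPM in ccl5 samples, against 23.7, 23.1 and 21.1 CPM in controls. For Mxd3 they were Hmgn2, Atp1b1, Rnf168, Smc1a and Slfn9 (r 0.998 to 0.999). Hmgn2, a nucleosome-binding protein gene, measured 114, 632 and 114 CPM in ccl5 samples, against 155, 173 and 640 CPM in controls. For Mxd1 they were Rab1b, BC005624, Wdr82, Tex261 and Sh3bp5l (r 0.993 to 0.997), and for Max they were Slc25a1, Whsc2, Pomt2, Itpk1 and Usp38 (r 0.991 to 0.998).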

How the data were processed

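Polyadenylated RNA of 6 libraries was sequenced as single-end reads. The authors deposited raw read counts per gene, made with featureCounts 1.5.1 from primary alignments against UCSC genes of mm10 without a strand option, per the file headers. The other tools named per the submitters' processing notes, with no role, are Trimmomatic, TopHat, Bowtie and DESeq2. Columns were matched to libraries by the last letter of the titles, and groups came from the titles and treatment labels. Control replicates carry the numbers of their titles, and ccl5 replicates are numbered in accession order.

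Genes were filtered with filterByExpr (minimum count 10), which left 12174 of 18580 genes with a count, scaled by TMM and tested two-sided in edgeR 4.0.16 under R 4.3.3 by quasi-likelihood. P-values were adjusted by Benjamini-Hochberg over all tested genes, at a threshold of 0.05. An SE is the size of the log2 fold change over the root of F. Levels per length divide CPM by the deposited exon length. Alternatives were DESeq2 1.42.0, limma-voom (limma 3.58.1) with sample quality weights, other scalings, filters and thresholds, and subsets of libraries. The 13 gene lists were not set-tested. The members and lists were chosen with earlier results of these data known. Named list genes are the 4 with the smallest p per list whose average log2 CPM reaches 1, plus a fixed set; a few of them are not reported here. Of the list symbols, 1 was not in the file.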

Additional observations from a re-analysis of the deposited data

How the results depend on the processing

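No paired analysis was possible because the groups share no replicate numbers in the labels, and the source name neo10, shared by 2 ccl5 libraries and 1 control, gives fewer than 2 pairs. The count of 0 genes called held with DESeq2 size factors, total counts, no filter, the stricter filter and a threshold of 0.1. It was also 0 with primary transplant libraries only and with ccl5 replicate 2 against the 3 controls, fits with 1 library in a group that is assumed to vary like the other group and that say little on stability. DESeq2's Wald test called 199 genes and limma-voom with sample quality weights 8097 (66.5%). In the fits that left out 1 library the count was 0 to 3299, with 3299 without ccl5 replicate 2, 237 without control replicate 3 and 0 in the others. Leaving out both of these libraries, an alternative added after seeing the data, gave 8797. The count of members called was 0 in these fits except 6 with limma-voom, 3 without ccl5 replicate 2 and 8 without both libraries. Over the fits that left out 1 library it ranged from 0 to 3. The counts of 3 and 8 include Mycl1, which passed the filter there only through the ccl5 libraries in which it was high. The call of Mycl1 is therefore not a result. Without ccl5 replicate 2 the other members called were Myc and Mnt, where 26.2% of all tested genes were called. Without both libraries they were the 7 members tested with 6 libraries, where 70.7% of all tested genes were called. The cause of the difference between tools was not tested.

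Max and Mnt kept their direction in all 15 alternatives. Myc turned to 0.14 with ccl5 replicate 2 as the lone ccl5 library. With primary transplant libraries only, Mxd1 turned to -0.040, Mxi1 to -0.044 and Mxd4 to -0.48. Mxd4 turned to -0.020 on total counts, and over the fits that left out 1 library it ranged from -0.12 to 0.63, turning without ccl5 replicate 2 and without control replicate 2. Mxd3 ranged from -3.25 to 1.78 over these fits, turning without ccl5 replicate 1, ccl5 replicate 3 or control replicate 3, and was 1.41 with ccl5 replicate 2 as the lone ccl5 library. The log2 difference in the MYC to MXD ratio was -2.36, -2.40 without dividing by length and -2.12 without Mnt and Mxi1. The median of the MYC-induced list lay between -0.87 and 0.15 over 13 alternatives. Mycn was under the floor of 3 counts in all 6 libraries and Mycl1 in 4, where a level cannot be told apart from 0.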
